A study of Mus musculus with 4 samples.

Results

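TRIM family genes, which mostly encode ubiquitin ligases, were followed in RNA from naive microglia, the macrophages that reside in the brain. They were taken as every gene row whose symbol is Trim, a number and at most 1 small letter, which gave 68 of 56832 gene rows. The cells came from female C57BL/6 mice with no intervention, the litter mates of transplanted mice. They were sorted from dissociated brain as CD11b+ cells with low to intermediate CD45, and are labelled replicates 1 to 4 of a single group. The wider study set such microglia beside graft-derived brain myeloid cells, which were not analysed here, so no comparison between treatments is made. No label ties a library to its own animal, and the spread between libraries may therefore be technical. The age of the mice is not given in the sources used here.

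TRIM proteins share an N-terminal tripartite motif, usually a RING finger, 1 or more B-boxes and a coiled coil, and most act as ubiquitin ligases that the RING finger joins to an E2 enzyme. The C-terminal part differs between members and chooses the target. A PRY-SPRY domain is the most common such part and is found in many members that act in antiviral and inflammatory signalling. Other members carry NHL repeats that can bind RNA or protein, or a PHD finger with a bromodomain that reads chromatin. In macrophages the family is known for steering the RIG-I-like, Toll-like and STING pathways, and several members are induced by interferon.

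The 4 libraries held 20606776, 22576720, 23292655 and 20360121 reads assigned to genes in replicates 1 to 4. The libraries differed in breadth, with 11426, 13478, 13308 and 9720 genes at or above 1 CPM (counts scaled to each library's total) in replicates 1 to 4. All 10 microglia markers listed here reached 10 CPM in every library, with list medians of 1834 to 4142 CPM. The T and NK cell list summed to 0.0485 to 6.78 CPM, the neuron list to 12.4 to 36.7, the mural and fibroblast list to 5.73 to 78.8 and the red blood cell list to 17.1 to 76.9 CPM. The endothelial list summed to 77.3 to 135, the monocyte list to 137 to 204, the astrocyte list to 240.1 to 504, the border macrophage list to 294 to 862, the B cell list, with Ms4a1 at 0, to 312 to 735 and the choroid plexus and ependymal list, led by Ttr, to 441 to 2050.1 CPM. The sum over 18 immediate early genes was 4985, 58693, 50475 and 5476 CPM in replicates 1 to 4. All 17 of these genes that entered the spread test described further on had an unadjusted p under 0.05 (edgeR), and none passed after adjustment. The sum over 8 neutrophil markers was 1484, 281, 270 and 2398 CPM in the same order, and that over 7 oligodendrocyte markers was 486, 1789, 1819 and 587 CPM. Neither Trim63 nor Trim72, which are known from striated muscle, had a read in any library.

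The sequences below are shown because 6 of the 10 genes of the Trim30 cluster, a run of neighbouring TRIM genes, hold the same motif near a start site. Trim6, Trim34b, Trim30b and Trim30c, the others of that cluster, had no match in this window. RefSeq (GRCm38.p6) promoters, 250 bases before to 50 after a start site, were found for 53 of the 68 members, some with several start sites, which gave 67 promoters. Their coordinates are those of GRCm38.p6 and do not apply to GRCm39, the build the authors used. The motif GAAANNGAAA, the core of the interferon-stimulated response element, was looked for on both strands. It was found in 10 of the 67 member promoters (14.9%), from 9 genes, and in 1131 of all 32851 promoters (3.44%). Those percentages are descriptions, because several of the members are copies of one another and share their promoter sequence. The AP-1 motif TGANTCA stood in 10 member promoters (14.9%) against 7.81% of all promoters. The cAMP response motif TGACGTCA stood in 2 (2.99%) against 1.79%. No match of 1 motif overlapped a match of another. A match is a run of letters and no evidence of binding. The stretches around the match that lie before or at the start site are printed 5′ to 3′ on the gene's strand. Capitals mark the match, which lies on the other strand in each and so reads TTTC, 2 bases, TTTC:
Trim5, chr7:104288126-104288175, - strand: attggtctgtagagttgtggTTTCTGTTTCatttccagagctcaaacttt
Trim12c, chr7:104353349-104353398, - strand: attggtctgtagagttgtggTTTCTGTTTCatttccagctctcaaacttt
Trim30a, chr7:104465200-104465249, - strand: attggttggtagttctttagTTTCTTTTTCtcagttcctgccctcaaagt
Trim30d, chr7:104507861-104507910, - strand: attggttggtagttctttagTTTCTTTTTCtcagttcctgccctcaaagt
Trim26, chr17:36836966-36837021, + strand: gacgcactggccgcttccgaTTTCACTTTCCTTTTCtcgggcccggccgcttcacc

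The stretch of Trim30a is the same, letter for letter, as that of Trim30d. Trim12a, whose match lies after its annotated start, holds the same letters as Trim5. Trim26 and Trim21 each hold a pair of overlapping matches. Trim34a and Trim2 complete the 9 genes with a match, and Trim30a had a match at another start site too.

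Naive microglia expressed a part of the family, at low to moderate levels. A count in any library was found for 46 of the 68 members (67.65%), against 38.15% of all gene rows. In every library, 33 (48.53%) had one, against 21.13%. At or above 1 CPM throughout the 4 libraries stood 24 members. That share, 35.3%, is the same as the 35.3% of 21615 protein-coding gene rows that passed this rule, and above the 14.8% of all gene rows, many of which are non-coding. Of the members, 18 (26.47%) reached 10 CPM in every library, against 10.08% of all gene rows. None reached 100 CPM in every library, against 2.015% of all gene rows. The median of the mean levels was 28.4 CPM over the 24 detected members and 37.1 CPM over all detected genes. Summed over the family, levels were 1161, 1182, 1046 and 859 CPM in replicates 1 to 4, or 1062 ± 148 CPM (SD, n = 4), lowest in replicate 4. The 5 members with the highest mean CPM, Trim35, Trim26, Trim47, Trim8 and Trim28, made up 38.5% ± 2.02 of that sum (SD, n = 4).

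**Figure D1:**
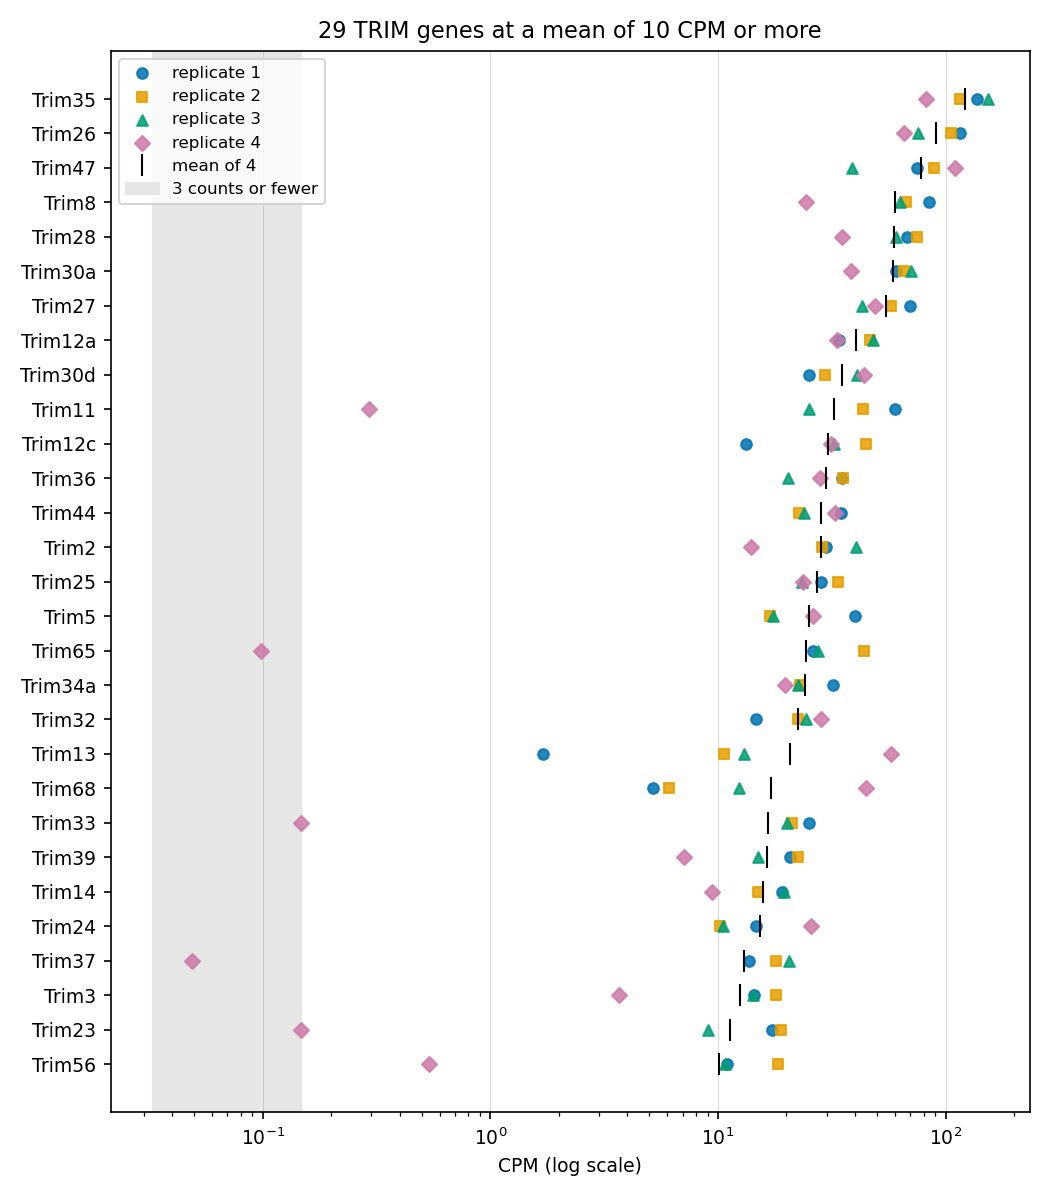
CPM on a log scale in each of the 4 naive microglia libraries for the 29 TRIM genes whose mean reached 10 CPM. Points are libraries, the black tick is their mean, and the grey band marks 3 counts or fewer, within which Trim23, Trim33, Trim37 and Trim65 lie in replicate 4, with Trim11 at 6 counts and Trim56 at 11 counts just above it.

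Members placed in the PRY-SPRY class carried most of the family's reads. That class took every member not placed in another C-terminal class, 39 of 68, and no domain was checked against a protein sequence. Of those 39, 15 stood at or above 1 CPM throughout, beside 35.3% of protein-coding gene rows. The class's summed level was 723 ± 95.9 CPM, 68.1% ± 1.08 of the family sum (SD, n = 4). Trim35, a ligase first described in blood cell lineages, was the highest of all members by CPM, with 137, 115, 154 and 81.6 CPM in replicates 1 to 4 and a mean of 122 ± 31.0 CPM (SD, n = 4). Trim26, a ligase encoded in the MHC region that acts on IRF3, had 116, 106, 75.7 and 65.4 CPM. Both were lowest in replicate 4, but never under 60 CPM. Trim47, a RING finger ligase, went the other way, with 74.9, 88.9, 38.8 and 110.1 CPM, highest in replicate 4 and lowest in replicate 3. Trim27, which works with MAGE proteins in endosomal recycling, was steadier at 69.4, 57.3, 43.1 and 48.9 CPM.

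Ranked per length, the order changed, because CPM also rises with the length of a transcript. Per kb of annotated exon, Trim47 stood at 28.6 ± 10.97 CPM per kb and Trim35 at 26.4 ± 6.72 CPM per kb (SD, n = 4). Those highest 2 members did not differ beyond their spread, and their order changed between libraries. Next came Trim8 at 16.1 ± 6.86, Trim28 at 14.3 ± 4.20, Trim30a at 14.3 ± 3.44 and Trim26 at 13.2 ± 3.49 CPM per kb, which overlapped one another. Trim13 followed at 12.6 ± 15.2 CPM per kb, a place that replicate 4 gave it, and Trim27 stood at 9.94 ± 2.08 CPM per kb. From rank 9 to rank 16, Trim34a, Trim30d, Trim11, Trim12c, Trim12a, Trim32, Trim5 and Trim36 lay between 9.35 and 6.04 CPM per kb, with neighbours closer than their SD.

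**Figure D2:**
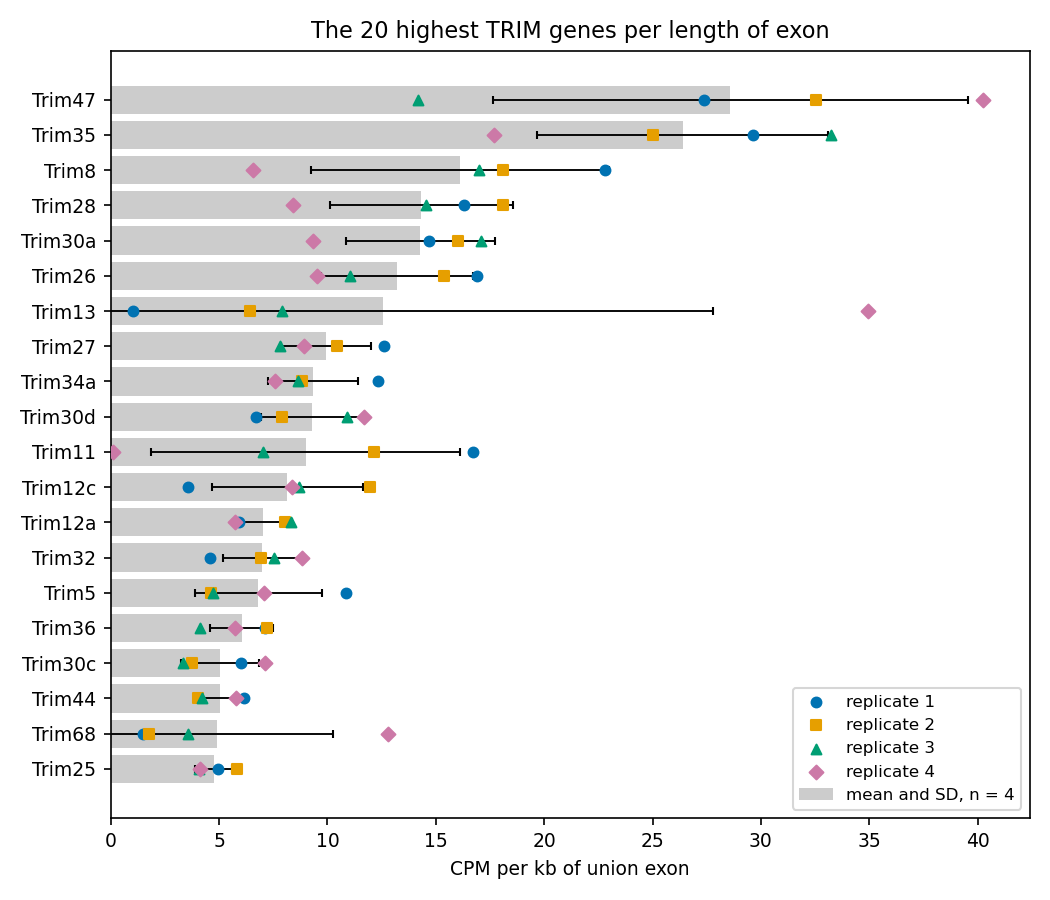
CPM per kb of union exon for the 20 highest TRIM genes. Grey bars are means, error bars are SDs over the 4 libraries and points are the libraries. Trim47 and Trim35 lead at means of 28.6 and 26.4 CPM per kb, and the wide bars of Trim13 and Trim68 come from replicate 4.

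The Trim30 cluster, a run of 10 neighbouring members, had a similar summed level in the 4 libraries. Its genes lie in the order Trim6, Trim34a, Trim5, Trim12a, Trim34b, Trim12c, Trim30b, Trim30c, Trim30a and Trim30d, with at most 2 other protein-coding genes between neighbours in RefSeq. Summed over the cluster, levels were 221, 240, 247 and 205 CPM in replicates 1 to 4, or 228 ± 19.0 CPM (SD, n = 4). Of the 10, 7 stood at or above 1 CPM throughout, beside 35.3% of all members and 35.3% of protein-coding gene rows.

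Trim30a, known in mice as a brake on Toll-like receptor signalling through TAB2 and TAB3, led the cluster with 60.3, 65.9, 70.2 and 38.4 CPM in replicates 1 to 4. Its close relative Trim30d had 25.2, 29.6, 41.0 and 44.0 CPM. Trim30a exceeded Trim30d per kb in replicates 1 to 3, by log2 ratios of 1.13, 1.02 and 0.65, and the order turned in replicate 4, at -0.33. The mean ratio was 0.62 ± 0.66 (SD, n = 4), within its spread. Trim30c had 10.3, 6.42, 5.75 and 12.2 CPM, and Trim30b had 5.44, 6.60, 6.48 and 0.0982 CPM, the last from 2 counts.

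Trim12a, Trim12c and Trim5 are mouse relatives of primate TRIM5, the cytosolic factor that restricts retroviral capsids. Trim12a had 34.2, 46.6, 48.2 and 33.3 CPM in replicates 1 to 4. Trim12c had 13.3, 44.8, 32.5 and 31.3 CPM, lowest in replicate 1, while Trim5 had 40.1, 17.0, 17.4 and 26.1 CPM and was highest in that library. Trim12a over Trim12c gave a mean log2 ratio per kb of -0.11 ± 0.61 (SD, n = 4), so neither was the higher beyond the spread. Trim34a, an interferon-inducible member, had 32.0, 22.9, 22.4 and 19.6 CPM, and its copy Trim34b had 0, 0, 2 and 0 counts. Trim6, which acts with IKK epsilon in interferon signalling, had 0, 15, 62 and 0 counts.

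Levels of these copies are uncertain, because reads that fit several genes could be dropped or split in counting. Of the 50-base words in annotated transcripts, 36.3% of those of Trim5 and 33.0% of those of Trim12c also occurred in another gene, most often in each other, as did 10.4% of those of Trim12a. Trim34b shared 56.8% of its words with Trim34a, which shared 39.8%. Trim30a and Trim30d were more distinct, at 5.98% and 7.49%. Reads aligned to more than 1 place made up 3.46% to 4.03% of the reads listed per library.

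**Figure D3:**
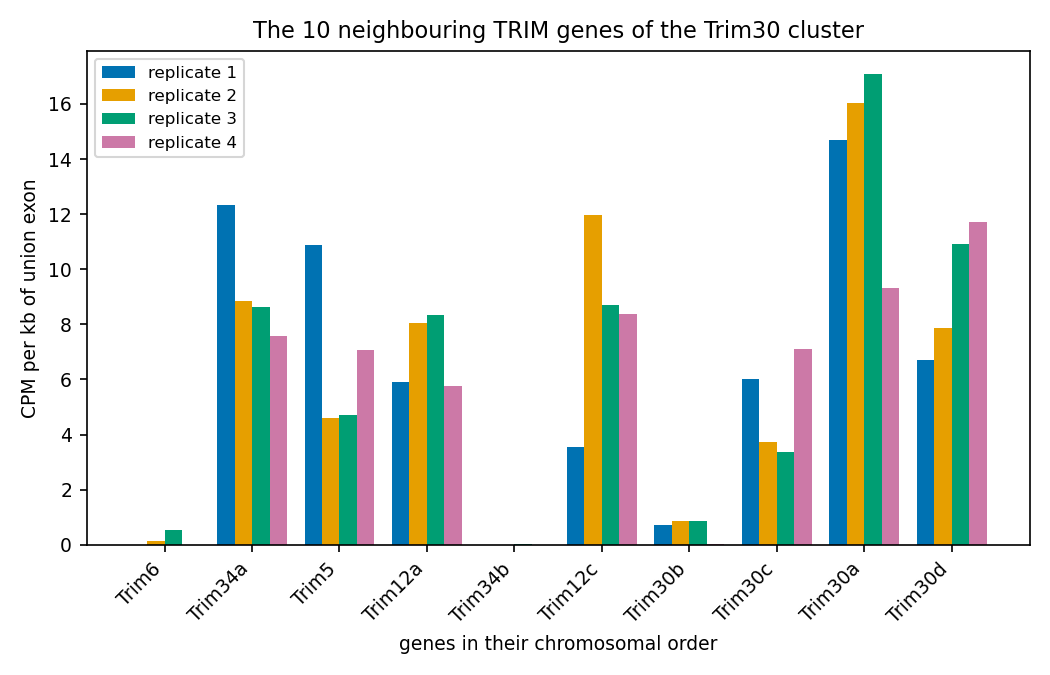
CPM per kb of union exon for the 10 neighbouring TRIM genes of the Trim30 cluster, in chromosomal order, with 1 bar per library. Trim30a is highest in replicates 1 to 3 and Trim30d in replicate 4, while Trim34b and Trim6 are at or near 0.

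Sensors and effectors of antiviral signalling outside the cluster ranged from steady to nearly unread. Trim25, the ligase that ubiquitinates RIG-I, was among the steadiest members, with 28.5, 33.6, 23.4 and 23.6 CPM in replicates 1 to 4, or 27.3 ± 4.83 CPM (SD, n = 4). Trim14, an adaptor of MAVS that lacks a RING finger, had 19.0, 15.1, 19.4 and 9.38 CPM. For Trim14, 38.0% of annotated exon bases also lie in a gene of the other strand, and the strand setting of the counting is not given in the sources used here. Trim35 exceeded Trim14 by 2.88 ± 0.11 on the log2 scale per kb in 4 of 4 libraries, the narrowest spread among the pairs compared.

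Trim21, the cytosolic antibody receptor, was read only a little, with 6, 12, 33 and 3 counts in replicates 1 to 4. Trim25 exceeded it per kb, by log2 ratios of 5.87, 5.29 and 3.39 in replicates 1 to 3. Trim38, a regulator of Toll-like and STING signalling, had no read in any library, which allows up to 0.129 to 0.147 CPM (3 counts of each library's total, counting error only). That limit assumes that its reads could be counted, and the annotation behind the counting is not given in the sources used here. Trim68, a co-activator of the androgen receptor in human cells, had 5.19, 6.07, 12.4 and 44.5 CPM, and its mean of 17.1 CPM was 7.89 CPM without replicate 4. Trim68 was highest in replicate 4. The neutrophil, microglia, monocyte, red blood cell, and choroid plexus and ependymal marker sums were highest there too. Of markers in the spread test, 7 of 8 neutrophil, 6 of 10 microglia and 3 of 4 monocyte genes were highest there. Sall1 and Sparc of the microglia list and Ccr2 and Ms4a6c of the monocyte list were instead lowest there. Ttr alone held 2008 of the 2050.1 CPM of the choroid plexus and ependymal sum in replicate 4. The part of other cells in that value of Trim68 was not tested. In such bulk RNA, fewer cells of a type and less RNA per cell cannot be told apart. Trim65, which acts on the sensor MDA5, and Trim56, which acts in STING signalling, had 0.0982 and 0.540 CPM in replicate 4 and over 10 CPM in each other library.

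Chromatin-associated members were led by Trim28, the co-repressor that KRAB zinc finger proteins recruit to silence transposable elements. Trim28 had 67.7, 75.2, 60.5 and 35.0 CPM in replicates 1 to 4, lowest in replicate 4. Its relative Trim24, a reader of histone tails and nuclear receptor cofactor, had 14.7, 10.2, 10.5 and 25.6 CPM, highest in replicate 4. Per kb, Trim28 exceeded Trim24 in 4 of 4 libraries, by 3.05 ± 1.08 on the log2 scale (SD, n = 4), with the smallest ratio, 1.48, in replicate 4. Trim33, which limits TGF-beta signalling through SMAD4, had 25.0, 21.2 and 20.2 CPM in replicates 1 to 3 and 3 counts in replicate 4. The order of Trim24 and Trim33 therefore turned in that library. Trim66, known from testis, had no read. The group's summed level was 91.5 ± 21.8 CPM, 8.51% ± 0.988 of the family sum (SD, n = 4).

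Of the 4 NHL repeat members, 3 were read in every library. Trim32, a ligase known from muscle and neural progenitors, had 14.8, 22.4, 24.3 and 28.5 CPM in replicates 1 to 4. Trim2, which targets a neurofilament subunit in neurons, had 29.9, 28.7, 40.6 and 13.9 CPM, and Trim3 had 14.4, 17.9, 14.2 and 3.68 CPM. Trim32 exceeded Trim3 per kb in 4 of 4 libraries, by 1.52 ± 1.32 on the log2 scale (SD, n = 4). Trim2 stood below Trim3 per kb in 4 of 4 libraries, at -0.82 ± 0.54, but above it without the length correction, at 1.29. The union of exons of Trim2 is 19751 bases, which can exceed the transcripts present, so that order is not settled. Trim71, known from pluripotent cells, had no read.

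Among the remaining classes, Trim8 and Trim44 have no named C-terminal domain. Trim8, which promotes NF-kappa-B signalling, had 84.5, 67.2, 63.1 and 24.3 CPM in replicates 1 to 4, lowest in replicate 4. It exceeded Trim56 of the same class by 4.52 ± 1.55 on the log2 scale per kb in 4 of 4 libraries (SD, n = 4). Trim44, which lacks a RING finger and carries a ubiquitin protease-like zinc finger, had 34.6, 22.8, 23.9 and 32.5 CPM and did not follow Trim8 in replicate 4. Trim36, a microtubule-associated member with a COS box, had 35.1, 35.6, 20.4 and 28.2 CPM. Its relatives Trim42, Trim46 and Trim67 had no read, and the neuronal member Trim9 had 0, 58, 6 and 148 counts. The neuron marker sum was 12.4, 17.98, 36.7 and 21.4 CPM in the same order, of which Camk2a alone had 12.3, 6.87, 16.5 and 21.3 CPM. Snap25, the next highest by mean, had 0.0485, 7.40, 14.0 and 0.0982 CPM. The part of neurons in the counts of Trim9 was not tested.

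Trim13, a ligase anchored in the endoplasmic reticulum membrane, lay furthest above the dispersion trend among the members tested below. It had 1.70, 10.6, 13.01 and 57.7 CPM in replicates 1 to 4, highest in replicate 4 and lowest in replicate 1, and its mean of 20.8 CPM was 8.45 CPM without replicate 4. Trim59, the other transmembrane member, had 0, 5.40, 6.31 and 5.16 CPM. Of the words of Trim13, 14.2% also occurred in another annotated gene. Trim37, which limits centriole duplication, and Trim23, which carries an ARF GTPase domain, each had 3 counts or fewer in replicate 4. Their levels in replicates 1 to 3 were 13.7, 17.9 and 20.6 CPM for Trim37, and 17.3, 18.9 and 9.02 CPM for Trim23. The filamin domain member Trim45 had 0, 148, 217 and 0 counts.

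Neighbouring members were often read unequally. Trim26 lies beside Trim15, Trim10, Trim40 and Trim31, and those 4 had no read in any library. Trim11, a ligase of protein quality control, lies beside Trim17, which had no read. Trim47 and Trim65 overlap on 1 strand, over 8.23% of the exon bases of Trim47 and 3.83% of those of Trim65. In replicate 4, where Trim47 was at its highest, Trim65 had 2 counts. Trim41, which lies beside Trim7, had 7.72, 10.99, 14.2 and 0.196 CPM in replicates 1 to 4, while Trim7 had 5.97, 4.08, 0.859 and 0 CPM.

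No read in any library was found for 22 members (32.35%), against 61.85% of all gene rows, many of which are non-coding. The 22 included several whose known sites lie outside the brain, and also Trim38, a regulator of Toll-like and STING signalling. The erythroid members Trim10 and Trim58, the stomach member Trim50 and the striated muscle members Trim63 and Trim72 were among them. Trim43a and Trim43c, known from early embryos, were also at 0, with 1 count in all for Trim43b. Trim54 and Trim55, relatives of Trim63, had 8 counts in replicate 4 and 4 counts in replicate 3 and none elsewhere. The others at 0 were Trim15, Trim17, Trim31, Trim38, Trim40, Trim42, Trim46, Trim52, Trim60, Trim61, Trim66, Trim67, Trim71, Trim75 and Trim80. In all, 24 members (35.29%) never rose above 3 counts in a library, against 66.24% of all gene rows. A count of 0 here is bounded by depth and by what the authors' annotation and counting could assign.

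Several members had almost no reads in replicate 4. Trim11 had 59.9, 43.5 and 25.1 CPM in replicates 1 to 3 and 0.295 CPM in replicate 4, from 6 counts. Under a rule set after these values were seen, 26 members stood at 10 CPM or more in each of replicates 1 to 3. Of those, 5 (19.2%) were below 1 CPM in replicate 4, namely Trim11, Trim33, Trim37, Trim56 and Trim65. Over all genes the same rule took 586 of 6869 (8.53%). With replicate 1, 2 or 3 in that place, no member was taken, of 19, 18 and 18, against 1.18%, 0% and 0% of all genes. Replicate 4 also had the fewest genes at 1 CPM or more, and the part of library breadth in these low values was not tested.

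A few members were read in part of the libraries only. Trim62, a RING ligase with a SPRY domain, had 0, 212, 32 and 0 counts, so it was read in replicates 2 and 3 only. Those libraries had the most genes at 1 CPM or more. They also had higher sums of the immediate early, oligodendrocyte, border macrophage, astrocyte, endothelial, and T and NK cell lists. The border macrophage sum was 294, 794, 862 and 441 CPM in replicates 1 to 4, and the endothelial sum 77.3, 135, 135 and 122 CPM. Not every listed gene followed its sum. Cd163 and Ms4a7 (border macrophage), Aqp4 and Gja1 (astrocyte), and Pecam1 and Cldn5 (endothelial) were highest in replicate 4. The part of breadth and of these lists in the values of Trim62 was not tested. Trim16, which takes part in the autophagy of damaged lysosomes, had 44, 64, 0 and 0 counts, and Trim29 had 53, 15, 0 and 0 counts. Trim69 had 27 counts in replicate 3 alone. None of these 4 members reached a mean of 3 CPM.

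The spread between libraries was tested gene by gene with edgeR's quasi-likelihood dispersion, set against its trend at the same expression level. The filter on low counts, which here asks for reads in every library, let 25 of the 68 members and 9075 genes into the test. No member and none of all genes (0%) passed an adjusted p of 0.05. The lowest adjusted p over all genes was 0.944 (edgeR), which was also that of Egr1, at 91.1 to 4265 CPM. With 4 libraries the test separated no gene, so a count of 0 members does not show that they were steady. At an unadjusted p under 0.05, 0 of 25 members and 395 of 9075 genes (4.35%) passed, and DESeq2 marked 0 genes as dispersion outliers. The members closest to it were Trim13, at 2.60 above the trend on the log2 scale, and Trim56, at 2.22, with an adjusted p of 0.944 each. Next were Trim68 at 1.72 and Trim8 at 1.23.

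These tested members are the ones with enough reads in every library. Trim11, Trim65, Trim33, Trim37 and Trim23, at 6 counts or fewer in replicate 4, were left out by the filter. Without it they lay above the trend, by 3.39, 3.20, 2.33, 2.23 and 1.70 on the log2 scale (adjusted p = 0.826 each, edgeR). Over the 25 that entered, the median was -0.35 on the log2 scale, against -0.09 over all genes, and 10 of 25 (40.0%) lay above the trend, against 48.2% of all genes. Their median coefficient of variation was 29.7%, against 38.6% over all genes tested. Lowest in spread were Trim44 at -2.94, Trim25 at -2.50 and Trim34a at -2.24. Of the 25, 12 (48.0%) had their lowest CPM in replicate 4, against 30.7% of all genes tested. No test was made of these shares.

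**Figure D4:**
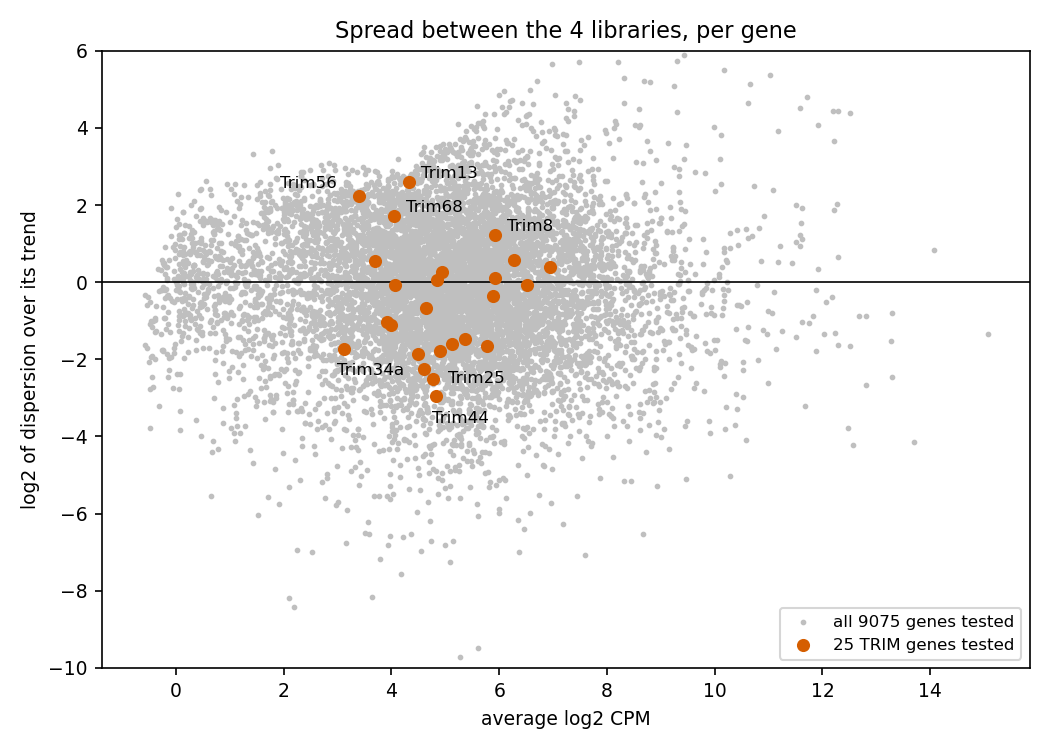
Log2 ratio of each gene's dispersion to its trend, against average log2 CPM, over the 4 libraries. Grey points are all 9075 genes tested and orange points the 25 TRIM genes, which run from -2.94 (Trim44) to 2.60 (Trim13), inside the range of all genes.

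Of 23 pairs of TRIM genes set side by side within each library, 20 gave a ratio and 16 kept 1 order in 4 of 4 libraries. Of those 16, 8 include a gene at 3 counts or fewer in at least 1 library, such as Trim17 at 0 in all, whose order there is set by that floor, and 8 do not. Besides the pairs above, Trim26 exceeded Trim27 per kb by 0.39 ± 0.20 and Trim47 exceeded Trim25 by 2.51 ± 0.61 on the log2 scale, while Trim39 over Trim27 gave -2.24 ± 0.65 (SD, n = 4). Trim39, a regulator of apoptosis and the cell cycle, had 20.8, 22.5, 15.1 and 7.07 CPM in replicates 1 to 4. By exact permutation of the signs of the 4 ratios, two-sided, each pair of 1 order had p = 0.125 (adjusted p = 0.156), which is the smallest p that 4 libraries allow, so none can pass 0.05. Outside the account of alternatives, no mean ratio is given for a pair with a gene at no more than 3 counts in any 1 library. The remaining pairs without a ratio, Trim37 and Trim23, Trim9 and Trim67, and Trim63 and Trim55, had both genes at that floor in at least 1 library.

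TRIM-type genes under other symbols were mostly low. Of 10 listed, 2 stood at or above 1 CPM throughout, beside 35.3% of protein-coding gene rows. Rnf135, a RING ligase of RIG-I, had 56.6, 45.8, 56.3 and 49.7 CPM in replicates 1 to 4. Pml, which builds nuclear bodies, had 3.15, 22.9, 11.2 and 0.0982 CPM, and Mid1, a microtubule-bound ligase, had 6.55, 3.59, 1.59 and 16.1 CPM. Cmya5, known from muscle, had a mean of 2.51 ± 2.79 CPM (SD, n = 4). Mid2, Rnf207 and Fsd2 had no read.

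Genes of 3 lists, of E2 enzymes, RIG-I-like receptor signalling and interferon-stimulated genes, were described by their levels. Whether a TRIM ligase uses a given E2 enzyme was not tested. Of protein-coding gene rows, 35.3% stood at or above 1 CPM throughout. Of 14 E2 enzymes, 13 stood at or above 1 CPM throughout, and their median level was 80.6 ± 4.59 CPM (SD, n = 4). They were led by Ube2d3 at 409 ± 62.2, Ube2j1 at 262 ± 108.01, Ube2g2 at 159 ± 33.1 and Ube2l3 at 157 ± 18.5 CPM. Of 12 measured genes of the RIG-I-like receptor pathway, 10 did so, led by Sting1 at 599 ± 132 CPM, Tbk1 at 104 ± 49.3, Irf3 at 77.5 ± 23.1 and the adaptor gene Mavs at 63.9 ± 14.6. Of 20 interferon-stimulated genes, 10 did so, their median level being 13.8 ± 4.95 CPM, with Bst2 at 115 ± 12.3, Irf9 at 92.1 ± 14.0 and Rtp4 at 38.1 ± 24.8 CPM among the highest. The spread test took in 13 E2 enzymes, 10 genes of the RIG-I pathway and 11 interferon-stimulated genes, and none passed, adjusted or not. Genes left out by its filter, such as Stat2 at 40.0, 37.6, 24.1 and 0.295 CPM in replicates 1 to 4, were not judged. Over the genes tested, the median log2 dispersion over trend was -1.47 for the E2 enzymes, -0.63 for the RIG-I pathway and -0.56 for the interferon-stimulated genes, beside -0.09 over all genes.

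Silencing partners of Trim28 had 11 of 16 genes at or above 1 CPM throughout, beside 35.3% of protein-coding gene rows. The median of the 12 tested lay above the dispersion trend. The highest were Morc3 at 170 ± 37.2 CPM, Atf7ip at 122 ± 69.02 CPM, Hdac1 at 87.9 ± 6.09 CPM and Chd4 at 78.5 ± 56.9 CPM (SD, n = 4). Of the 12 partners tested, 8 were lowest in replicate 4, against 30.7% of all genes tested, and 3 were highest there, against 40.3%. No test was made of these shares. Morc3 was one of those 3, with 181, 137, 144 and 218 CPM in replicates 1 to 4. Atf7ip and Chd4 were lowest in replicate 4, with 158, 163, 147 and 18.6 CPM for Atf7ip and 49.98, 126, 126 and 12.1 CPM for Chd4 in replicates 1 to 4. These 2 of the 12 had an unadjusted p under 0.05 in edgeR's spread test, beside 4.35% of all genes tested, and an adjusted p of 0.944. The methyltransferase gene Setdb1, which Trim28 recruits, had a mean of 28.7 ± 18.4 CPM.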

How the data were processed

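The authors deposited raw counts of reads for each gene symbol, in 1 table per library. Per the submitters' processing notes, STAR 2.7.10a, SAMtools 1.16.1 and HTSeq 0.11.2 were used with GRCm39; the sources used here do not give the annotation, strand setting or read filters. The 5 closing rows of each table, 20.8% ± 1.28 of its reads (SD, n = 4), were left out. Each count was scaled to CPM by the library's total over gene rows, and a count of 0 allows 3 counts, 0.129 to 0.147 CPM. Intervals cover counting error only, since amplified reads are not independent molecules.

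Exon unions came from GENCODE vM21 (GRCm38) by symbol, for 68 of 68 members and 90.0% of gene rows; its build differs from the authors', and coordinates are printed only for RefSeq promoters (GRCm38.p6). An intercept-only quasi-likelihood fit in edgeR 4.0.16 (R 4.3.3, minimum count 10, TMM) gave each gene's dispersion. That dispersion was tested against its trend by an upper-tail F test with Benjamini-Hochberg adjustment over all genes. A run on simulated data gave all genes the same dispersion, unlike these libraries, and so does not show how the test performs here. The pair ratios used (count + 0.5) per kb. DESeq2 1.42.0, other scalings and filters, another pseudocount and leaving out each library were alternatives. Python 3.11.15 did the rest.

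The members and lists were chosen with earlier results of these data known. Genes named are members at a mean of 10 CPM or more, members of the pairs, those at 0, and the 4 highest of each of 6 gene lists, of which 1 gene is not reported here; other named members were chosen after their values were seen. There were also 13 cell type marker lists. No label ties a library to its own animal, so p-values measure only the spread between these samples.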

Additional observations from a re-analysis of the deposited data

Results flagged for a closer look

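Of 38 members at a mean of 1 CPM or more, Trim62 had 1 library far from the others. Replicate 2 stood at 9.39 CPM, against 0, 1.37 and 0 CPM in replicates 1, 3 and 4, and its gap to the nearest library was 0.854 of the range, over Dixon's 95% critical value for 4 samples. Chance flags about 1 in 20 such groups.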

How the results depend on the processing

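No paired analysis was possible because all libraries belong to 1 group. The number of members past the spread test was 0 under every alternative run, with DESeq2 size factors, totals as scaling, no filter, a filter of 1 CPM in every library, DESeq2's own outliers, and 0 to 0 when leaving out each library. No gene of any kind was called under any of them, so this agreement does not show that the members were steady. With no filter, 46 members entered, and 2 of them, Trim11 and Trim65, with 2.15% of all genes, were under an unadjusted p of 0.05 (edgeR, adjusted p = 0.826 each). Trim13 passed unadjusted under 4 of the alternatives. The number of detected members, 24, was 38 at a mean of 1 CPM, 18 at 10 CPM in every library, 24 with TMM scaling, and 24 to 32 when leaving out each library, with 32 without replicate 4. The number of pairs of 1 order, 16, ran from 16 to 18. The order of Trim2 and Trim3 turned to 1.29, and that of Trim12a and Trim12c to 0.52, without the length correction. Leaving out each library gave -0.39 to 0.0426 for Trim12a over Trim12c (above 0 without replicate 2 or 4), -0.72 to 2.04 for Trim24 over Trim33, and -2.52 to 0.14 for Trim65 over Trim25; the last 2 turned without replicate 4, where Trim33 and Trim65 had 3 counts or fewer, so that their ratios there rest on the added 0.5. Leaving out 1 library moved the mean CPM by over 1.5 times for 7 of 38 members: to 8.45 for Trim13, 7.89 for Trim68 and 0.942 for Trim9 (from 20.8, 17.1 and 2.52, without replicate 4), 0.458 for Trim62 and 0.712 for Trim16 (from 2.69 and 1.24, without replicate 2), 2.19 for Trim45 (from 3.97, without replicate 3) and 1.64 for Trim7 (from 2.73, without replicate 1). Depth limits members at 3 counts or fewer, and 50-base sharing limits the copies of the Trim30 cluster.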
